A study of Mus musculus with 4 samples.

Results

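Integrins, CD44, MCAM and the classical cadherins of melanoma were read as 10 genes chosen by name: Itga4, Itga5, Itga6, Itgav, Itgb1, Itgb3, Cd44, Mcam, Cdh1 and Cdh2. Every probe set annotated to exactly 1 of these symbols was taken, 28 probe sets of 45141 on the array, and the brightest of them by its mean over all arrays gave the value of each gene, 10 of the 17097 genes compared. The cells were B16F10, a pigmented mouse melanoma line of C57BL/6 origin that was selected for colonization of the lung. Controls 1 and 2 received MilliQ water (0 µM plumbagin), and plumbagin 1 and 2 received 2 µM plumbagin, a plant naphthoquinone, for 24 h. No other agent is named in the labels. RNA was measured on Affymetrix 3-prime expression arrays, 1 sample per array. Whether the cultures were separate is not in the labels; p-values therefore reflect only how far these samples vary, which may be technical.

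Integrins are pairs of an alpha and a beta subunit that bind extracellular matrix outside the cell and, through talin and kindlin, the actin cytoskeleton inside it. The beta 1 subunit pairs with alpha 4 (a receptor for VCAM1 and fibronectin), alpha 5 (fibronectin) and alpha 6 (laminin). The alpha V subunit pairs with beta 3 in the vitronectin receptor, long used as a marker of invasive melanoma. CD44 is a receptor for hyaluronan, MCAM (also MUC18) is an immunoglobulin-type adhesion molecule of melanoma and endothelium, and many melanomas carry N-cadherin (Cdh2) in place of the E-cadherin (Cdh1) of normal melanocytes.

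Upstream sequences are shown for Itga4 and Mcam, whose levels differed most between arrays of the same treatment, and for Itgb1, which encodes the partner of alpha 4. RefSeq's table of gene starts (GRCm38.p6) held 6 of the 10 genes; each stretch is the 250 bases just before the start, on the plus strand. Capitals mark GC boxes, GGGCGG or its reverse complement CCGCCC.
Itga4, chr2:79255176-79255425: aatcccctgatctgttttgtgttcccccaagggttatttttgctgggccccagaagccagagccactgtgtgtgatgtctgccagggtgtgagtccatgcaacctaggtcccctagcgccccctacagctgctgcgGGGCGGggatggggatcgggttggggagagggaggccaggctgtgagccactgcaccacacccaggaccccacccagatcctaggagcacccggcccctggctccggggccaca
Itgb1, chr8:128685404-128685653: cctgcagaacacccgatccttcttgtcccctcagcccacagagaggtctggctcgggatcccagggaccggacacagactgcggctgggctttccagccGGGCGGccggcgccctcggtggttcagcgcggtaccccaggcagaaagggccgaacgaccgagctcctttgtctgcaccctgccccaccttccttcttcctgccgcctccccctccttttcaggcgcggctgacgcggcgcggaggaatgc
Mcam, chr9:44134408-44134657: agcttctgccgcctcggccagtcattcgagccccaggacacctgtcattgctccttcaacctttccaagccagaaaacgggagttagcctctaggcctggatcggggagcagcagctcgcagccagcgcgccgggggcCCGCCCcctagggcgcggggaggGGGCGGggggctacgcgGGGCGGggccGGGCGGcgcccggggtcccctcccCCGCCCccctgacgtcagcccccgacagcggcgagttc
A GC box was found 1 time upstream of Itga4, 1 time upstream of Itgb1 and 5 times upstream of Mcam, and 32.7% of all 32851 upstream stretches of this length held at least 1. The E-box CANNTG, which reads the same on both strands, was found 1 time in Itga4, 0 times in Itgb1 and 1 time in Mcam, and 66.2% of all stretches held it. Its form CAGGTG, searched on both strands, was found in Mcam alone of these 3 and in 17.2% of all stretches. These matches describe the letters only.

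The arrays were alike in overall distribution, with median log2 values from 4.32 to 4.39. Plumbagin 1 stood slightly apart, with an upper quartile of 6.26 against 6.34 to 6.36 on the others. Melanocyte markers fitted the label: 8 of 8 (Tyr, Tyrp1, Dct, Pmel, Mlana, Mitf, Sox10 and Slc45a2) lay above the background level, a log2 value of 5.05 that is the 95th percentile of 41 odorant receptor (Olfr) genes, assumed silent here. Of markers of other cells, 0 of 8 fibroblast and 0 of 6 epithelial genes lay above this level. Above it were 2 of 7 leukocyte genes (Cd3e, mean 6.22, and Laptm5, 5.06) and 1 of 6 endothelial genes (Kdr, 5.15). Those below it included Ptprc (3.57), Pecam1 (3.67) and Cdh5 (4.07).

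Transcripts of 8 of the 10 genes were above background: the integrin subunits Itga4, Itga6, Itgav, Itgb1 and Itgb3, together with Cd44, Mcam and Cdh2. Each of these 8 had a mean above every Olfr gene, whereas 50.5% of all genes lay above the background level. Itga5 and Cdh1 lay below background. None of the 10 differed between plumbagin and control by limma (adjusted p = 1 for each; 0% of all genes were called, and 169 had an unadjusted p under 0.05). The smallest unadjusted p of the 10 was 0.169. Itgav and Itgb3, the subunits of the vitronectin receptor, were the 2 of 10 genes with both plumbagin arrays on 1 side of both controls, in both cases above; 25.4% of all genes had their arrays apart in this way and 10.2% had the plumbagin arrays above. After centring each array on its median, neither Itgav nor Itgb3 stayed apart. With 2 arrays against 2 an exact two-sided permutation test cannot go below p = 0.333.

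**Figure D1:**
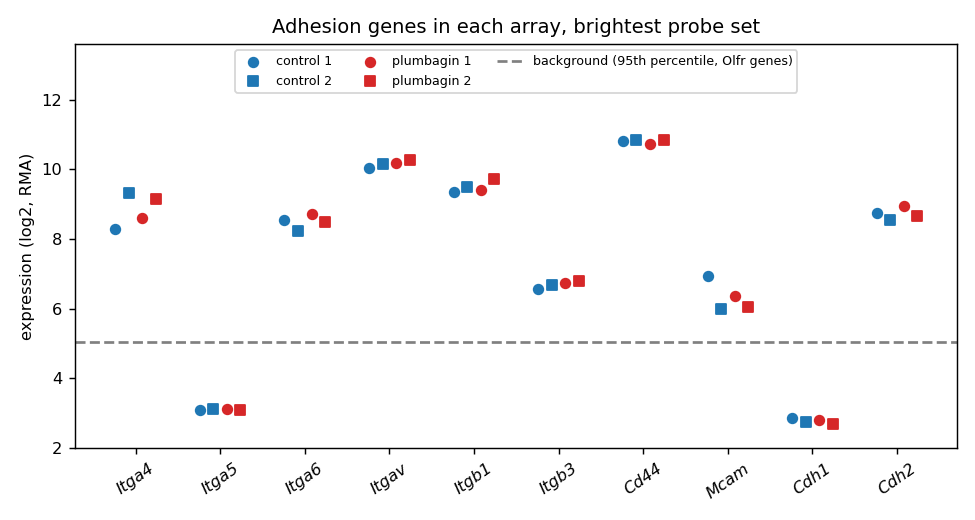
Expression (log2, RMA) of the 10 genes on each array, from the brightest probe set of each gene; circles and squares are arrays numbered 1 and 2, blue is control and red is plumbagin. The dashed line is the background level of 5.05; Itga5 and Cdh1 lie below it, and for Itga4 and Mcam the points spread by number more than by treatment.

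Itga4 encodes alpha 4, which with beta 1 forms the receptor VLA-4. Its log2 values were 8.28 and 9.31 in controls 1 and 2, and 8.60 and 9.15 in plumbagin 1 and 2. Both arrays numbered 2 were higher than both arrays numbered 1, whatever the treatment, and the treatment groups overlapped. In RNA of whole cultures, more cells with the transcript and more transcript per cell cannot be told apart. The gap between the controls, 1.03, exceeded that of 99.2% of all genes, while plumbagin minus control was 0.08 ± 0.41 (log2, SE, n = 2 per group; 95% interval -1.01 to 1.18). This difference had no stable sign: it was -0.44 without control 1, -0.20 without plumbagin 2, and -0.06 when the probe sets of the gene were averaged.

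The other bright probe sets of Itga4 repeated the split between array numbers. In the second probe set by brightness the values were 6.99 and 7.96 in the controls and 7.06 and 7.62 with plumbagin, in the third 6.10 and 6.88 against 6.00 and 6.76, and in the fourth 5.06 and 5.47 against 4.83 and 5.54. All 4 probe sets were higher on the arrays numbered 2, by 0.41 to 1.03 between the controls and by 0.56 to 0.76 between the plumbagin arrays. Plumbagin minus control was -0.14, -0.11 and -0.08 in the second to the fourth, opposite in sign to the brightest. The dimmest probe set was at background (mean 2.51). Alpha 4 is abundant on leukocytes. The 7 measured leukocyte markers had a mean level of 4.44 and 4.36 in controls 1 and 2. It was 4.44 and 4.32 in plumbagin 1 and 2. Only 2 of the 7 lay above background, and a leukocyte contribution to Itga4 was not tested.

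**Figure D2:**
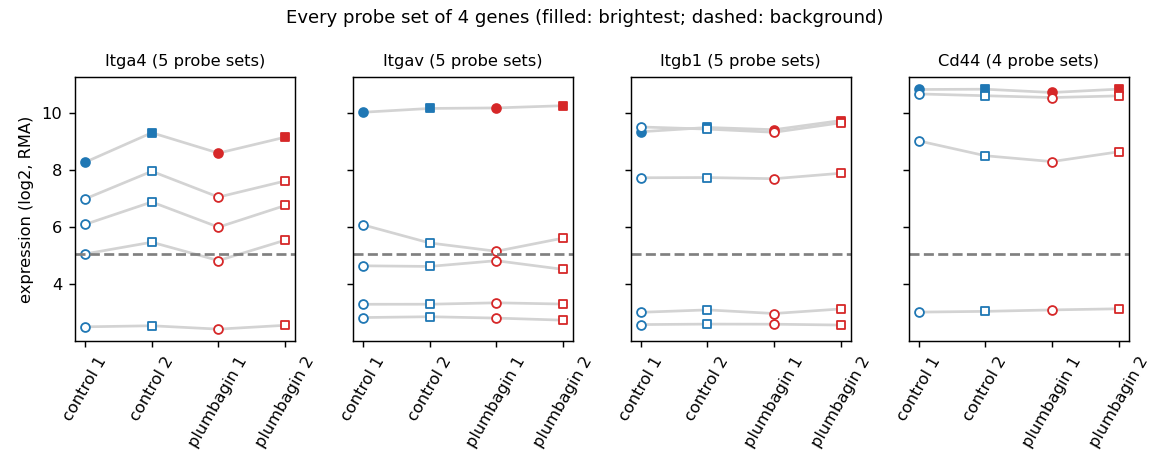
Every probe set of Itga4, Itgav, Itgb1 and Cd44 (log2, RMA, 1 line per probe set across the 4 arrays; filled symbols mark the brightest, the dashed line the background level of 5.05). The 4 brighter lines of Itga4 are all higher on the arrays numbered 2 in both treatments; each of the 4 genes also has at least 1 probe set below background.

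Itgb1 encodes beta 1, the shared partner of alpha 4, alpha 5 and alpha 6. Its values were 9.35 and 9.49 in controls 1 and 2 and 9.42 and 9.74 in plumbagin 1 and 2. Plumbagin 2 was the highest array and plumbagin 1 lay between the controls, so the groups overlapped. The difference was 0.16 ± 0.14 (log2, SE; 95% interval -0.23 to 0.54), and it was -0.0024 without plumbagin 2. The other 2 bright probe sets differed by 0.02 and 0.06.

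Itga6 encodes the laminin-binding alpha 6. Its values were 8.54 and 8.25 in the controls and 8.72 and 8.48 with plumbagin. It was higher with plumbagin within each array number, by 0.19 and 0.23, but control 1 exceeded plumbagin 2. The mean difference, 0.21 ± 0.15 (log2, SE; 95% interval -0.20 to 0.62), was the largest positive one of the 10 genes and kept its sign when each array was left out in turn (0.06 to 0.36). The second probe set also differed upward, by 0.15, through 0.02 between the arrays numbered 1 and 0.28 between those numbered 2. Unlike Itga4, both Itga6 probe sets were lower on the arrays numbered 2, by 0.29 and 0.35 between the controls.

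Itga5 encodes the fibronectin-binding alpha 5 and was read by the 1 probe set annotated to it alone, since unnamed probe sets were not used. Its values of 3.10, 3.14, 3.11 and 3.09 in control 1, control 2, plumbagin 1 and plumbagin 2 were below background on all arrays, and 9.76% of Olfr genes had a lower mean. The probe set gave no signal above background, which does not show that the transcript is missing: 8 other probe sets, of 5 genes, were also dim although a brighter probe set of the same gene lay above background (the other 2 dim ones were the only probe sets of Itga5 and Cdh1). Its difference was -0.02 ± 0.08 (log2, SE), and 0.0015 without control 2.

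Itgav encodes alpha V, the subunit that pairs with beta 3 and several other beta chains. Its values were 10.03 and 10.16 in the controls and 10.18 and 10.26 with plumbagin. Both plumbagin arrays were above both controls, with plumbagin 1 only 0.02 above control 2. The difference was 0.12 ± 0.09 (log2, SE; 95% interval -0.13 to 0.37). A second bright probe set went the other way, with 6.08 and 5.45 in the controls and 5.16 and 5.62 with plumbagin. Its difference was -0.38 ± 0.28, made up of -0.93 between the arrays numbered 1 and 0.17 between those numbered 2. With all 5 probe sets averaged Itgav differed by -0.05, so its direction depended on the probe set.

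Itgb3 encodes beta 3, the beta chain of the vitronectin receptor. Its values were 6.58 and 6.69 in the controls and 6.74 and 6.81 with plumbagin. The plumbagin arrays again lay above both controls, by 0.06 at the narrowest point. The difference was 0.15 ± 0.09 (log2, SE; 95% interval -0.09 to 0.38), with the smallest p of the 10 genes. It was 0.17 between the arrays numbered 1 and 0.12 between those numbered 2, and 0.09 to 0.20 with each array left out in turn. The second probe set was below background (mean 3.24).

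**Figure D3:**
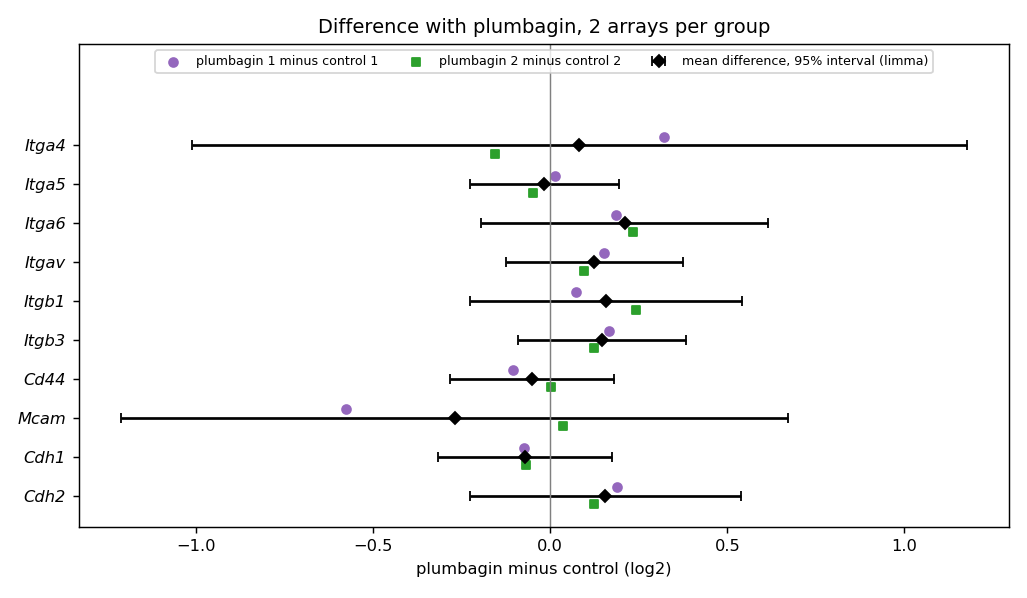
Plumbagin minus control (log2) for the 10 genes: black diamonds with bars are the mean difference and its 95% interval by limma (n = 2 per group), circles are plumbagin 1 minus control 1 and squares plumbagin 2 minus control 2. Every interval spans 0; those of Itga4 (-1.01 to 1.18) and Mcam (-1.21 to 0.67) are the widest.

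Cd44 encodes the hyaluronan receptor, a transcript with many splice forms. Its brightest probe set gave 10.83 and 10.84 in the controls and 10.72 and 10.84 with plumbagin. Plumbagin 1 was the lowest array, and plumbagin 2 was at the level of the controls. The difference was -0.05 ± 0.09 (log2, SE; 95% interval -0.28 to 0.18), and it was 0.0075 without plumbagin 1. The second probe set differed by -0.07. Both of its plumbagin arrays were below both controls, but narrowly, at 10.6032 in plumbagin 2 against 10.6085 in control 2. The third was more variable, at 9.03 and 8.51 in the controls and 8.30 and 8.64 with plumbagin, a difference of -0.29 ± 0.23 that came from -0.73 between the arrays numbered 1 and turned to 0.14 between those numbered 2. Which splice forms each probe set reads was not analysed here.

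Mcam was read by 1 probe set, with 6.95 and 6.00 in the controls and 6.38 and 6.04 with plumbagin. Control 1 was the highest array, and both plumbagin arrays lay between the controls. Its control gap, -0.95 from control 1 to control 2, was larger in size than that of 98.9% of all genes and opposite in direction to that of Itga4. The difference with plumbagin was -0.27 ± 0.35 (log2, SE; 95% interval -1.21 to 0.67). It was -0.58 between the arrays numbered 1 and 0.04 between those numbered 2, and it turned to 0.20 without control 1. The mean level of the 6 endothelial markers ranged from 3.69 to 3.76 over the 4 arrays. Of the 6, 1 (Kdr, 5.09 to 5.24) lay above background on each array. The rest, Pecam1 and Cdh5 among them, lay below it. An endothelial contribution to Mcam was not tested.

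The cadherins were on opposite sides of background. Cdh1, E-cadherin, gave 2.87 and 2.76 in the controls and 2.80 and 2.70 with plumbagin, and 2.44% of Olfr genes had a lower mean. Cdh2, N-cadherin, gave 8.76 and 8.55 in the controls and 8.95 and 8.67 with plumbagin, and was above every Olfr gene. Cdh2 was higher with plumbagin within each array number, by 0.19 and 0.12, yet control 1 exceeded plumbagin 2. Its difference was 0.16 ± 0.14 (log2, SE; 95% interval -0.23 to 0.54), and 0.05 ± 0.25 in the second probe set. That of the first was 0.016 without plumbagin 1 and 0.048 without control 2. Both Cdh2 probe sets were lower on the arrays numbered 2, by 0.21 and 0.56 between the controls and by 0.28 and 0.42 between the plumbagin arrays. Cdh1 differed by -0.07 ± 0.09, among values that had no signal above background. It was read by 1 probe set, which, as for Itga5, does not show that the transcript is missing.

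Read together, 6 of the 10 genes had a higher mean with plumbagin and 4 a lower one, with a median difference of 0.10 beside -0.01 over all 17097 genes. The median was -0.0033 without plumbagin 2 and was -0.03 with probe sets averaged, so its sign changed with these choices. Among the 18 bright probe sets, 10 were higher and 8 lower, and of the 10 bright probe sets that were not the brightest of their gene 6 had the sign of the brightest. In 7 of the 10 genes the gap between the controls was larger than the mean difference with plumbagin. A gap between single arrays varies more than a difference of means, and the share of all genes is not given here. Over all genes the median gap between the controls (0.11) was likewise larger than the median absolute difference (0.07). By array number, 3 genes (Itga4, Itgb1 and Cd44) had both arrays numbered 2 above both arrays numbered 1, against 18.9% of all genes. In 4 (Itga6, Mcam, Cdh1 and Cdh2) they were below, against 30.0%. For Cd44 control 2 exceeded control 1 by only 0.0095, and in its other bright probe sets this gap was -0.063 and -0.52. In the other bright probe sets of Itgb1 it was -0.075 and 0.0072. The labels do not say what the array numbers stand for.

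**Figure D4:**
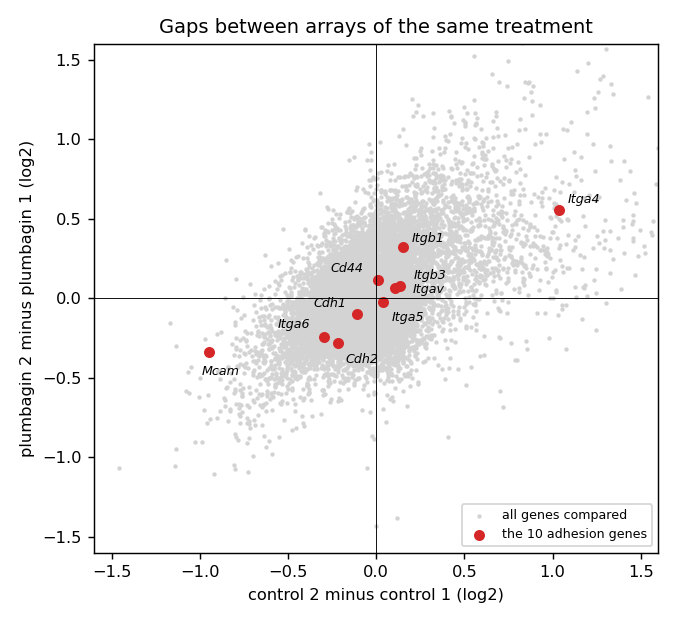
Gap between the control arrays (control 2 minus control 1) against the gap between the plumbagin arrays (plumbagin 2 minus plumbagin 1), both log2; grey points are all genes compared, red points the 10 adhesion genes, and 28 genes fall outside the axes. Itga4 lies at the upper right (1.03, 0.56) and Mcam at the lower left (-0.95, -0.33).

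The rest of the adhesion machinery was read through 6 lists chosen from general knowledge, and 0 of their measured genes passed the limma test. Values were present for 17 of 19 other integrin subunits, 23 of 27 adaptors and 16 of 22 ligands. They were present for 16 of 18 immunoglobulin-type and proteoglycan genes, and the CD44 and cadherin lists were complete. Genes without a value under the annotation used included Ptk2, Spp1, Itgb8 and Cspg4. Among the other integrin subunits, 4 of 17 measured genes were above background, Itga2b, Itga9, Itgax and Itgb5; 7 of the 17 were higher, 9 were lower and 1 (Itga8, below background) was at a difference of 0 (median -0.02). Itgb5, another partner of alpha V, differed by -0.25 ± 0.18 (log2, SE), or -0.022 without plumbagin 1. Itga9, a relative of alpha 4, differed by -0.26 ± 0.29, or 0.14 without plumbagin 1. Itgax, a leukocyte alpha subunit close to background, differed by 0.09 ± 0.10, and by -0.00094 without plumbagin 1.

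Of the adaptors that tie integrins to actin, 22 of 23 measured genes were above background, and 16 were lower with plumbagin and 7 higher. The share of all genes with a lower mean is not given here for any list. The adaptor median was -0.05, beside -0.01 over all genes. It was -0.0012 with quantile normalization again and 0.010 with cyclic loess, so it depended on the scaling. Both plumbagin arrays were below both controls in 3 of the 23 and above in 1, against 15.2% and 10.2% of all genes. Tln1, talin 1, which activates integrins by binding beta tails, gave 8.24 and 8.24 in the controls and 7.60 and 8.00 with plumbagin. The controls were nearly equal, both plumbagin arrays were lower, and plumbagin 1 was the lower one. The difference was -0.44 ± 0.16 (log2, SE; adjusted p = 1 by limma), -0.23 without plumbagin 1, and -0.18 with all probe sets of the gene averaged. Paxillin (Pxn), a focal adhesion scaffold, differed by -0.18 ± 0.08 with its plumbagin arrays also below both controls, and by -0.058 with its probe sets averaged. Zyxin (Zyx), an actin-linked focal adhesion protein, differed by -0.50 ± 0.29, which was -0.11 without plumbagin 1.

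**Figure D5:**
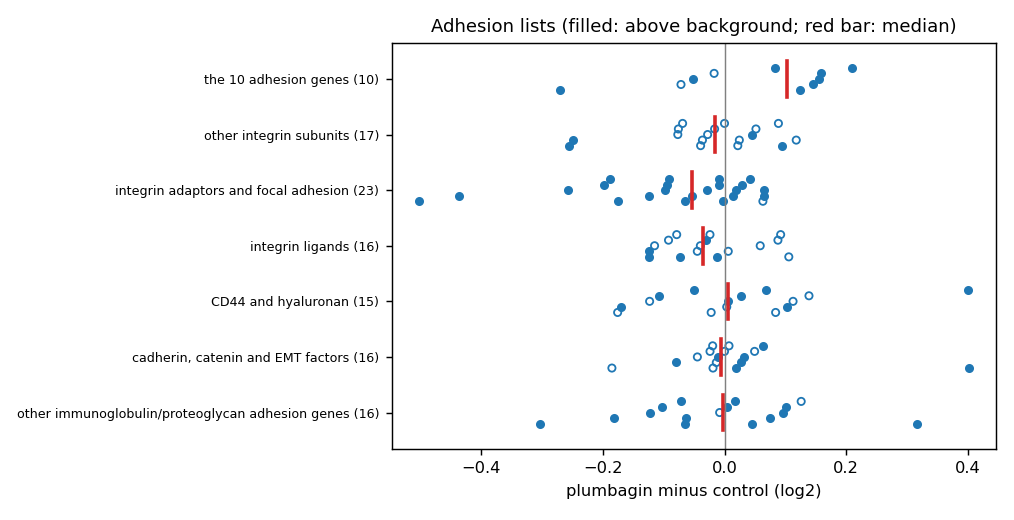
Plumbagin minus control (log2, mean of 2 arrays per group) for each of the 10 genes and for each measured gene of 6 adhesion lists; filled points have a mean above the background level, open points do not, and red bars are medians. Medians of the 6 lists lie between -0.05 and 0.01, and that of the 10 genes at 0.10.

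Of the integrin ligands, 5 of 16 were above background (Fn1, Lamb1, Lamc1, Mfge8 and Ccn1), 11 were lower and 5 higher, and the median was -0.04. Lamb1 and Lamc1, chains of laminins bound by alpha 6 beta 1, differed by -0.12 ± 0.11 and -0.03 ± 0.10 (log2, SE), or -0.022 without plumbagin 1 for Lamb1 and 0.06 without control 1 for Lamc1. Mfge8, a ligand of alpha V integrins, differed by -0.12 ± 0.08, or -0.058 with cyclic loess normalization. In the list around CD44 and hyaluronan, 8 of 15 genes were above background, 9 were higher and 6 lower, and the median was 0.01. Ezrin (Ezr), a membrane-to-actin linker that binds the CD44 tail, differed by -0.11 ± 0.17 (0.09 without control 1), and Nf2, encoding its relative merlin, by -0.17 ± 0.13 (-0.041 without plumbagin 1). Hmmr, a hyaluronan-binding protein that also serves in mitosis, differed by 0.40 ± 0.29, from 0.92 between the arrays numbered 1 and -0.12 between those numbered 2, and by 0.019 without control 1.

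Among cadherin, catenin and EMT genes 7 of 16 were above background: Cdh13, Ctnna1, Ctnnb1, Ctnnd1, Zeb1, Zeb2 and Vim. The median was -0.0050. Snai1 (mean 3.23), Snai2 (4.18) and Twist1 (3.10), which encode repressors of Cdh1 in other settings, lay below background. Zeb2, a repressor of the same kind that is part of the melanocyte program, gave 7.68 and 8.69 in the controls and 8.29 and 8.88 with plumbagin. Like Itga4 it was higher on both arrays numbered 2, by 1.01 between the controls and 0.60 between the plumbagin arrays, and its treatment difference was 0.40 ± 0.41 (log2, SE), or -0.10 without control 1. Zeb1 differed by 0.06 ± 0.09 (0.0053 without plumbagin 1) and Ctnna1, alpha-catenin, by -0.08 ± 0.08 (0.086 with probe sets averaged). Of the other immunoglobulin-type and proteoglycan adhesion genes 14 of 16 were above background, 8 were higher and 8 lower, and the median was -0.0018. Pvr, the poliovirus receptor of the nectin family, gave 8.89 and 8.94 in the controls and 8.50 and 8.72 with plumbagin, a difference of -0.30 ± 0.11 (log2, SE; adjusted p = 1 by limma), or -0.20 without plumbagin 1. Nectin3, another nectin, differed by -0.18 ± 0.12, or -0.055 without plumbagin 1 and -0.034 with probe sets averaged. Cadm1, a cell adhesion molecule of the immunoglobulin family, differed by 0.32 ± 0.21, or 0.037 without control 1. Across all genes 0.988% had an unadjusted p under 0.05; among the 10 integrin, CD44, MCAM and cadherin genes 0 did.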

How the data were processed

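The authors deposited 1 log2 value for each probe set on each array. Transcriptome Analysis Console, RMA and Affymetrix Expression Console are named, without versions, per the submitters' processing notes. RMA equalises array distributions, so a shift of most genes would be removed, and compresses weak signals. Levels were set against the Olfr background and, within a gene, used to pick the brightest probe set; levels of different genes were not ranked.

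Of 45141 probe sets, 28898 had 1 gene in the platform annotation, which can be old (551 had several and the rest were unnamed). Symbols were updated through the Entrez number for 28689 of them. Each gene was represented by its brightest probe set. Groups came from the titles. Differences were fitted over 17097 genes with limma 3.58.1 in R 4.3.3 (lmFit and eBayes, no covariates, two-sided, Benjamini-Hochberg adjustment, threshold 0.05), and the code was tested on simulated data. The number of arrays, 2 per group, limits precision. The members were chosen by name and the lists from general knowledge, both with earlier results of these data known. From each list up to 3 genes above background with the smallest p were described; Snai1, Snai2, Twist1, Fn1 and Cdh13 lie outside this rule. Alternatives were other probe set choices, filters, normalizations and variance models, a block, and leaving out arrays.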

Additional observations from a re-analysis of the deposited data

How the results depend on the processing

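The count of 0 genes called by limma, over all genes and among the 10, and the 8 genes above background were the same under every alternative run. Of the 10 genes, 2 had arrays apart. This count was 1 with probe sets averaged, 6 of 28 probe sets taken singly, and 1 with arrays centred on medians. After that centring Itgav and Itgb3 overlapped, and the 1 gene apart was Cdh1, below background and lower with plumbagin. The count was 5 to 7 with 1 array left out, where fewer arrays need to be apart. The share of all genes under these alternatives is not given here, so these counts do not single out the 10 genes. Their median difference of 0.10 was -0.034 with probe sets averaged, 0.0060 over single probe sets, 0.13 with either filter on dim genes, 0.13 with quantile normalization again, 0.084 with median centring, 0.15 with cyclic loess, and -0.0033 to 0.070 with 1 array left out.

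Averaging probe sets turned the sign of Itga4 (-0.056), Itgav (-0.052) and Ctnna1 (0.086). Single probe sets opposed the brightest in Itga4 (-0.14, -0.11, -0.081 and, at background, -0.032), Itgav (-0.38 and, at background, -0.070) and, at background only, Itgb1 (-0.0048 and -0.010) and Cd44 (0.084). Lamc1 turned with quantile normalization (0.024) and loess (0.037). With 1 array left out, differences ran from -0.44 to 0.60 for Itga4, -0.74 to 0.20 for Mcam, -0.11 to 0.0075 for Cd44, -0.0024 to 0.32 for Itgb1, -0.036 to 0.0015 for Itga5, -0.65 to 0.14 for Itga9, -0.00094 to 0.19 for Itgax, -0.12 to 0.062 for Lamc1, -0.31 to 0.089 for Ezr and -0.10 to 0.91 for Zeb2. The causes were not tested.

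Leaving out arrays for the lists was added after seeing the data. In the main run 25.4% of all genes had their arrays apart. The share of all genes under the alternatives is not given here, so the counts below do not single out the lists. With 1 array left out, fewer arrays need to be apart and the counts rise for that reason alone. For other integrin subunits the median was -0.038 with quantile normalization, -0.035 with median centring, -0.037 with loess and -0.025 to 0.011 with 1 array left out, and the genes apart numbered 4, 5, 5 and 9 to 10 in the same order, beside 2. For adaptors the median was -0.0012 with quantile normalization, 0.010 with loess and -0.094 to 0.013 with 1 array left out (13 to 14 genes apart, beside 4). For ligands it was -0.083 to 0.040 with 1 array left out (6 to 12 apart, beside 2, and 1 with quantile normalization). For CD44 and hyaluronan genes it was -0.013 with median centring, 0.029 with loess and -0.021 to 0.029 with 1 array left out (8 to 12 apart, beside 5, and 3 with probe sets averaged). For cadherin and EMT genes it was -0.024 with median centring and -0.027 to 0.0076 with 1 array left out (9 to 10 apart, beside 3). For immunoglobulin-type and proteoglycan genes it was -0.043 to 0.0053 with 1 array left out (8 to 12 apart, beside 4, and 7 with quantile normalization).

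Same-numbered arrays deviated together over all genes (r = 0.54, across 17097 genes, which are not independent), but 2 numbers do not establish pairing. With the replicate number as a block, 0 genes were called and the median difference of the 10 was unchanged at 0.10.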

Other observations

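Some genes of the adhesion lists differed between arrays of the same treatment by more than with plumbagin; those here were chosen after their values were seen. Fn1, which encodes fibronectin, a ligand of alpha 4 beta 1 and alpha 5 beta 1, gave 7.34 (control 1) and 6.56 (control 2), then 7.22 (plumbagin 1) and 6.53 (plumbagin 2), on the log2 scale. It was lower on both arrays numbered 2, by 0.78 and 0.69, opposite to Itga4, while it differed by -0.07 ± 0.36 (log2, SE) with plumbagin. Cdh13, a cadherin anchored in the membrane by a lipid, was higher on both arrays numbered 2, with 6.18 and 6.58 in the controls and 6.08 and 6.72 with plumbagin, and differed by 0.02 ± 0.27 with treatment.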
